A study of Mus musculus with 12 samples.

Results

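Solute carriers are membrane proteins that move amino acids, sugars, ions, nucleotides, metals and transmitters across the plasma membrane or across the membranes of vesicles, mitochondria and the Golgi apparatus. This account covers every gene row whose name starts with Slc, which gave 146 of 7667 gene rows. Of these, 142 encode carriers of 40 subfamilies, and the other 4 (Slc9a3r1, Slc9a3r2, Slc7a6os and Slc4a1ap) are named after a carrier and are not carriers themselves. The mouse annotation used here, GENCODE M21, names 385 protein-coding Slc genes. Every row of the table reaches a score of 10 in some condition, and carriers below that level are not covered. All 146 members reached the minimum of 5 set for a ratio.

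The 4 groups were fxSCA7 92Q mice at 29 weeks, wild-type littermates at 29 weeks, fxSCA7 92Q mice at 12 weeks and wild-type littermates at 12 weeks. The 92Q mice model spinocerebellar ataxia type 7, an inherited loss of cerebellar and retinal neurons, and carry an ataxin-7 allele with 92 CAG repeats. The labels name neither the construct and promoter of the allele nor any Cre line or treatment. Cerebellar RNA was sequenced in 3 libraries per group, each pooling 3 mice, and the deposited table holds 1 normalized score per gene and group, rounded to a whole number. So there is no replicate error and no test below, and higher or lower is said of these single values.

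The depth behind the scores is unknown, and every column had a median of 22 over all genes. A log2 ratio below is taken after adding 1 to each score. The range that rounding alone allows was found by moving each score by 0.5, and a ratio whose range does not reach 0 is called beyond rounding, which says nothing about biological spread. Scaling the columns in other ways moved the median ratio of all genes by up to 0.032 in the genotype and age comparisons and single ratios by differing amounts, so the sign of a ratio near 0 can depend on the scaling. Scores are compared between conditions of the same gene and not between genes, since it is not stated whether they are per length. Cerebellar markers were present in all groups: Gabra6, a granule cell GABA receptor subunit, scored 337 to 417 and the Purkinje cell gene Pcp2 871 to 1661. Genes of the sex chromosomes also differed between the groups. Xist scored 25 in 92Q and 63 in wild type at 29 weeks and 30 in 92Q and 66 in wild type at 12 weeks. Y-linked Eif2s3y scored 15 in 92Q and 6 in wild type at 29 weeks and 12 in 92Q and 0 in wild type at 12 weeks. Y-linked Ddx3y scored 11 in 92Q and 5 in wild type at 29 weeks and 9 in 92Q and 0 in wild type at 12 weeks. Genotype and sex makeup therefore cannot be told apart in any comparison of 92Q with wild type, nor age and sex makeup in wild type.

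In the cerebellum most carriers of this family serve a few well-known tasks. Glutamate released by climbing fibres and by the parallel fibres of granule cells is cleared by carriers of the Slc1 family, on Purkinje cells and on the Bergmann glia that wrap their synapses. Vesicular carriers of Slc17 and Slc32 load glutamate, or GABA and glycine, into synaptic vesicles, and Slc6 carriers take GABA and glycine back up. Slc25 carriers connect the mitochondrial matrix with the cytosol, Slc30 carriers move zinc out of the cytosol and Slc39 carriers move it in. Choroid plexus and meninges, which border the cerebellum and can be dissected with it, have carriers of their own for folate, sulfate, bicarbonate and peptides.

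Promoter windows of 3 members are given as examples of transmitter carriers described below: Slc1a6 and Slc1a3 are the glutamate carriers that were lower in 92Q at both ages, and Slc6a11 is the GABA carrier that was higher at 29 weeks in both genotypes. Each window holds 300 bases around the transcription start, from RefSeq (GRCm38.p6). Slc1a6 lies on chr10:78780246-78780545 (plus strand), Slc1a3 on chr15:8710758-8711057 (minus strand) and Slc6a11 on chr6:114130991-114131290 (plus strand). Capitals mark the GC box, GGGCGG on either strand, with overlapping matches merged.
Slc1a6: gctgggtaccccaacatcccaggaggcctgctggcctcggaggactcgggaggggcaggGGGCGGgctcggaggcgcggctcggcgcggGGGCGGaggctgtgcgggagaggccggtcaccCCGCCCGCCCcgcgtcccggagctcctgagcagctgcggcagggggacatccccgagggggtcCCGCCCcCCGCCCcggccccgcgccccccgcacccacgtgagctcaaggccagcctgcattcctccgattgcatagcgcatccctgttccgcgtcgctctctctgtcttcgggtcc
Slc1a3: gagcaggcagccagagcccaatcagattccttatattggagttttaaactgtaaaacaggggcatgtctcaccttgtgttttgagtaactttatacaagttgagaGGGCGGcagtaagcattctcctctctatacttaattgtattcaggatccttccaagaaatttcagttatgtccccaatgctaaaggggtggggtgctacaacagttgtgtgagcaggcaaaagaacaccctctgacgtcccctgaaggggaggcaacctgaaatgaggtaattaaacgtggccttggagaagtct
Slc6a11: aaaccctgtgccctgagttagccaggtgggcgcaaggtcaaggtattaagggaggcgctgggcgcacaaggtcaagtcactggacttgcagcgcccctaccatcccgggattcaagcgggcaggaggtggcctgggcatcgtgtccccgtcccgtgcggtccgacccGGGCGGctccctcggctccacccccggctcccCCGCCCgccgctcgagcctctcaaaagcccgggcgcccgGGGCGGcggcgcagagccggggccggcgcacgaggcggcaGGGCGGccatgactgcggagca
The Slc1a6 window held 6 GC boxes, Slc6a11 had 4 and Slc1a3 had 1. G and C made up 75.7% of the bases for Slc1a6, 72.3% for Slc6a11 and 45.3% for Slc1a3. By symbol 117 members matched the RefSeq promoters, and 68.2% of their 157 windows held a GC box, against 64.3% of the 7781 windows of all genes in the expression table. The 6 letters AGGTCA, the core of the site bound by nuclear receptors of the ROR family, searched on both strands, occurred 2 times in the Slc6a11 window and 0 times in those of Slc1a6 and Slc1a3. They were found in 9.55% of member windows, against 11.7% of the windows of all listed genes. A match of letters is a description and not a binding site.

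At 29 weeks most carriers had nearly the same score in 92Q and wild-type cerebella, and the genes that stood out were single carriers of different subfamilies. The largest lower ratio was that of Slc1a6 and among the largest higher ones were those of Slc2a13 and Slc13a4. Of the 146 members 8 were at least 1.2-fold higher in 92Q (5.48%), where 3.78% of all 7666 gene rows compared were, and 4 were at least 1.2-fold lower (2.74%), where 3.12% of all rows were. At least 1.5-fold, 1 member was higher and 1 lower, against 0.535% and 0.73% of all rows. The share of higher members is somewhat above that of all rows and rests on 8 genes, and the other shares lie near it. Among these 8, Slc13a4 and Slc46a1 have a row only because 92Q at 29 weeks reached 10, and so had to be higher there. Restricted to members at 10 in all 4 conditions the count was 4, as it was with a pseudocount of 5. The median ratio over the members was 0.00, as over all rows, and the standard deviation over genes was 0.14 for the members and 0.18 for all rows.

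Small differences leaned to one side at 29 weeks. Of the members 69 were higher in 92Q, 37 lower and 40 equal, and beyond rounding 42 were higher and 21 lower. All rows leaned the same way, with 3791 higher and 2003 lower, so the lean of any subfamily at this age is read against that.

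At 12 weeks fewer carriers differed between the genotypes. Only Slc15a2 was at least 1.2-fold higher in 92Q, or 0.685% of the members against 0.496% of all 7660 rows, and Slc13a4 was the only one at least 1.2-fold lower, against 1.54% of all rows. Slc15a2 was also past 1.5-fold, where 0.0783% of all rows were higher, and no member was 1.5-fold lower, where 0.17% of all rows were. In all, 46 members were higher, 57 lower and 43 equal in 92Q. All rows had the same lean, with 2462 higher, 2812 lower and 2386 equal, against which the subfamily counts at 12 weeks are read. Over the members the standard deviation of the ratios was 0.10. At both ages together 28 members differed beyond rounding each time. Of these, 8 were higher at both ages, 8 lower at both and 12 opposite, so 57.1% kept their direction, beside 53.3% of the 1535 rows of the whole table that differed at both ages.

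**Figure D1:**
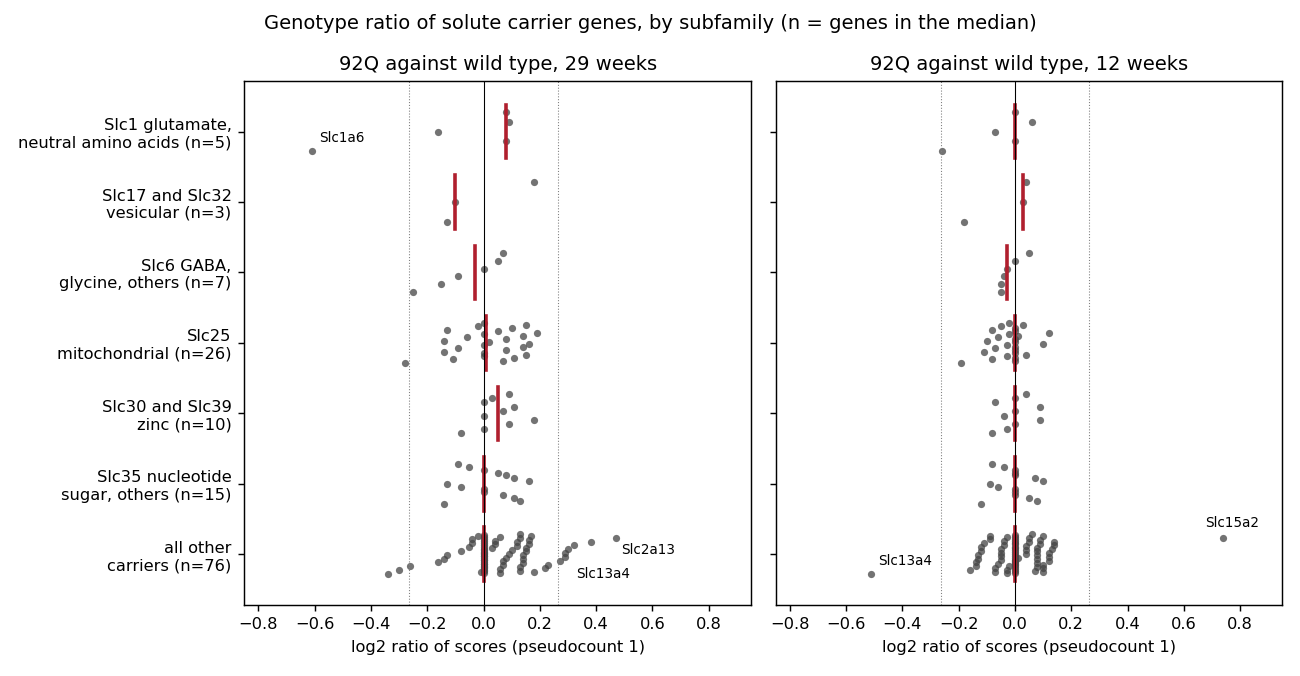
Log2 ratio of 92Q to wild type for 138 carriers, at 29 weeks (left) and 12 weeks (right), by subfamily. Each point is 1 gene, red bars are medians over all 142 carriers and dotted lines mark 1.2-fold. Slc1a6 stands at -0.61 at 29 weeks, and most other points lie between the dotted lines at both ages.

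The glutamate carriers did not share a direction. Slc1a6 encodes EAAT4, the glutamate transporter that Purkinje cells place on their dendrites and spines beside parallel and climbing fibre synapses. It scored 45 in 92Q and 69 in wild type at 29 weeks, and 66 in 92Q and 79 in wild type at 12 weeks. Its log2 ratio was -0.61 at 29 weeks (rounding range -0.63 to -0.58) and -0.26 at 12 weeks (-0.28 to -0.24), so 92Q was lower at both ages and the difference was larger at the later one. The gene lies on chromosome 10 at 78780496 to 78814765 (plus strand, mm10, protein-coding, whole gene). It was the only member in the authors' deposited table of 99 selected genes, which were chosen on these samples.

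Slc1a6 had the pattern of other Purkinje cell genes. All 15 genes of a Purkinje cell marker list were lower in 92Q at both ages, with medians of -0.65 at 29 weeks and -0.26 at 12 weeks. Their summed score was 3430 in 92Q and 5583 in wild type at 29 weeks, and 5175 in 92Q and 6666 in wild type at 12 weeks. In bulk tissue fewer Purkinje cells and less RNA per cell cannot be told apart.

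Slc1a3, the Bergmann glia and astrocyte transporter GLAST, was lower in 92Q by smaller steps. Its score was 323 in 92Q and 361 in wild type at 29 weeks, and 375 in 92Q and 394 in wild type at 12 weeks, ratios of -0.16 and -0.07. Slc1a2, the astrocyte transporter GLT-1, had the opposite order, with 202 in 92Q and 190 in wild type at 29 weeks and 174 in 92Q and 167 in wild type at 12 weeks (0.09 and 0.06). Both lay beyond rounding at both ages. The astrocyte list that these can be set against had a median of 0.05 at 29 weeks and -0.04 at 12 weeks over 12 markers, with 8 higher and 4 lower at 29 weeks. The lowest ratio among them was that of Aldoc, with 924 in 92Q and 1227 in wild type at 29 weeks. Aldoc encodes zebrin II, which in the cerebellum does not mark astrocytes alone. Next lowest was Gdf10, with 106 in 92Q and 130 in wild type, and the highest was Gfap, with 235 in 92Q and 95 in wild type. The neuronal carrier Slc1a1 (EAAT3) was 17 in 92Q and 16 in wild type at 29 weeks and 14 in both at 12 weeks. Slc1a4, which exchanges neutral amino acids such as serine, was 17 in 92Q and 16 in wild type at 29 weeks and 16 in both at 12 weeks. Neither differed beyond rounding. In the annotation 32.0% of the exon bases of Slc1a1 overlap a gene on the opposite strand, and whether the counting used strand is not known.

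Of 10 vesicular carriers 3 had a row, and their genotype differences were small. Slc17a7 encodes VGLUT1, which fills the vesicles of parallel fibres and of many mossy fibres. It scored 188 in 92Q and 201 in wild type at 29 weeks (-0.10), and 248 in 92Q and 242 in wild type at 12 weeks (0.04). Granule neuron markers leaned likewise, with a median of -0.10 at 29 weeks (2 higher and 8 lower of 11) and 0.07 at 12 weeks (9 higher and 2 lower).

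Slc17a6 encodes VGLUT2, the carrier of climbing fibres, whose cell bodies lie outside the cerebellum, and of neurons of the cerebellar nuclei. It scored 24 in 92Q and 21 in wild type at 29 weeks (0.18), against 14 in 92Q and 16 in wild type at 12 weeks (-0.18). Slc32a1, the vesicular carrier for GABA and glycine in Purkinje cells and interneurons, was 83 in 92Q and 91 in wild type at 29 weeks (-0.13) and 91 in 92Q and 89 in wild type at 12 weeks (0.03). Each of these 3 genes differed in opposite directions at the 2 ages, and none reached 1.2-fold between the genotypes. An antisense gene covers 24.9% of the Slc32a1 exon bases.

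Of 7 members of the transmitter and amino acid uptake family Slc6, 2 were higher in 92Q, 4 lower and 1 equal at 29 weeks, and the count was the same at 12 weeks. The median ratio was -0.03 at both ages, though at 12 weeks it turned to 0.004 with columns scaled to equal upper quartiles. Slc6a17, a carrier of neutral amino acids on synaptic vesicles, had the largest difference, with 83 in 92Q and 99 in wild type at 29 weeks (-0.25) and 93 in 92Q and 95 in wild type at 12 weeks (-0.03). The taurine carrier Slc6a6 was 26 in 92Q and 29 in wild type at 29 weeks (-0.15) and 25 in 92Q and 26 in wild type at 12 weeks. The glycine carrier Slc6a9 (GlyT1) was 64 in 92Q and 68 in wild type at 29 weeks and 64 in 92Q and 66 in wild type at 12 weeks, a pair of small differences in one direction. The creatine carrier Slc6a8 was 60 in 92Q and 58 in wild type at 29 weeks and 58 in 92Q and 56 in wild type at 12 weeks, and the neutral amino acid carrier Slc6a15 was 23 in all 4 conditions. In Slc6a9 38.8% of exon bases overlap a gene on the opposite strand.

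**Figure D2:**
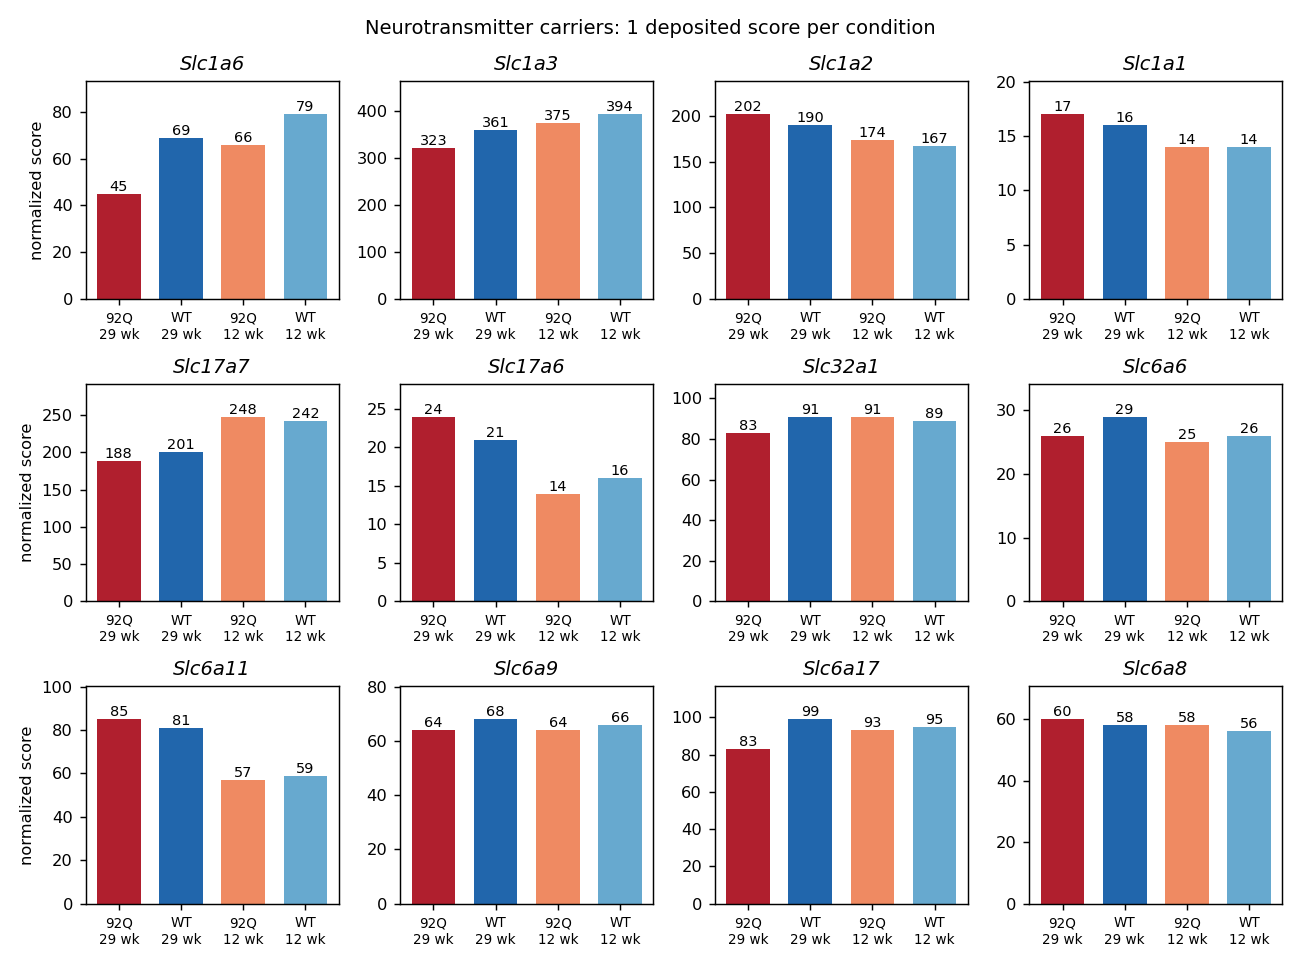
Deposited score of 12 transmitter and related carriers in each condition, with 92Q left of wild type and 29 weeks left of 12 weeks. Each bar is 1 value with no replicate error. Slc1a6 is lowest in 92Q at 29 weeks at 45, and Slc6a11 stands at 85 in 92Q and 81 in wild type at 29 weeks, beside 57 in 92Q and 59 in wild type at 12 weeks.

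Mitochondrial carriers formed the largest subfamily, with 26 members, and their genotype differences were small at both ages. At 29 weeks 13 were higher in 92Q, 8 lower and 5 equal, with a median of 0.01. At 12 weeks 5 were higher, 12 lower and 9 equal, with a median of 0.00. Beyond rounding 9 were higher and 5 lower at 29 weeks, and 2 higher and 5 lower at 12 weeks. One member, Slc25a29, passed 1.2-fold.

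Slc25a4 and Slc25a3, which carry adenine nucleotides and phosphate for ATP synthesis, had opposite orders at the ages. Slc25a4, the ATP and ADP exchanger of excitable tissue, scored 424 in 92Q and 400 in wild type at 29 weeks (0.08), and 406 in 92Q and 437 in wild type at 12 weeks (-0.11). The phosphate carrier Slc25a3 was 178 in 92Q and 162 in wild type at 29 weeks (0.14) and 171 in 92Q and 178 in wild type at 12 weeks (-0.06). Slc25a39, needed for mitochondrial glutathione, was 58 in 92Q and 52 in wild type at 29 weeks (0.15) and 51 in 92Q and 54 in wild type at 12 weeks (-0.08). All 3 were higher in 92Q at the later age and lower at the earlier one, beyond rounding each time.

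Among the carriers of metabolic intermediates, the oxoglutarate and malate carrier Slc25a11 was 59 in 92Q and 53 in wild type at 29 weeks (0.15), and 59 in 92Q and 60 in wild type at 12 weeks. The citrate carrier Slc25a1 was 27 in 92Q and 24 in wild type at 29 weeks (0.16) and 23 in both at 12 weeks. Slc25a51, which brings NAD into the matrix, was 20 in 92Q and 18 in wild type at 29 weeks (0.14) and 19 in both at 12 weeks. Slc25a38, a glycine carrier of haem synthesis, was 15 in 92Q and 13 in wild type at 29 weeks (0.19) and 14 in both at 12 weeks. These 4 were higher in 92Q beyond rounding at 29 weeks and not at 12 weeks.

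Other mitochondrial carriers were lower in 92Q at 29 weeks. Slc25a29, a carrier of basic amino acids, was 13 in 92Q and 16 in wild type (-0.28), against 17 in 92Q and 18 in wild type at 12 weeks (-0.08). The glutamate carrier Slc25a22 was 92 in 92Q and 101 in wild type at 29 weeks (-0.13) and 110 in 92Q and 109 in wild type at 12 weeks (0.01). The ATP-Mg and phosphate exchangers, which are regulated by calcium, were both lower at 29 weeks: Slc25a23 was 198 in 92Q and 211 in wild type at 29 weeks (-0.09) and 216 in 92Q and 212 in wild type at 12 weeks (0.03), and Slc25a25 was 28 in 92Q and 31 in wild type at 29 weeks (-0.14) and 27 in 92Q and 29 in wild type at 12 weeks (-0.10). The aspartate and glutamate exchanger Slc25a12 was 63 in 92Q and 62 in wild type at 29 weeks and 60 in 92Q and 61 in wild type at 12 weeks, and the glial glutamate carrier Slc25a18 was 57 in 92Q and 58 in wild type at 29 weeks and 56 in 92Q and 57 in wild type at 12 weeks. Of the uncoupling proteins, Slc25a27 (UCP4) was higher in 92Q by 0.10 at both ages, with 30 in 92Q and 28 in wild type at 29 weeks and 28 in 92Q and 26 in wild type at 12 weeks. Slc25a14 (UCP5) was 12 in 92Q and 13 in wild type at 29 weeks and 13 in 92Q and 15 in wild type at 12 weeks (-0.19).

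Zinc carriers differed little. Of 10 members 6 were higher in 92Q, 1 lower and 3 equal at 29 weeks, with a median of 0.05, and 3 were higher, 4 lower and 3 equal at 12 weeks, with a median of 0.00. Beyond rounding, 3 were higher at 29 weeks and 0 lower, and none differed at 12 weeks in either direction. The importer Slc39a6 was 16 in 92Q and 14 in wild type at 29 weeks (0.18) and 15 in 92Q and 14 in wild type at 12 weeks. Slc30a9, a mitochondrial zinc exporter, was 39 in 92Q and 36 in wild type at 29 weeks (0.11) and 38 in 92Q and 39 in wild type at 12 weeks. Slc39a12, an astrocyte importer, was 32 in 92Q and 30 in wild type at 29 weeks (0.09) and 28 in both at 12 weeks.

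The remaining zinc carriers stayed within rounding between the genotypes. The secretory pathway carrier Slc30a5 was 19 in 92Q and 18 in wild type at 29 weeks and 18 in 92Q and 19 in wild type at 12 weeks. Slc30a4, which loads zinc into vesicles, was 17 in both genotypes at 29 weeks and 16 in 92Q and 17 in wild type at 12 weeks. Slc39a7, which releases zinc from the endoplasmic reticulum, was 45 in 92Q and 44 in wild type at 29 weeks and 46 in 92Q and 47 in wild type at 12 weeks. These differences are of 1 unit, the step of the scores. The importers Slc39a9 and Slc39a10 differed by no more than that, Slc39a9 with 16 in 92Q and 15 in wild type at 29 weeks and 15 in 92Q and 14 in wild type at 12 weeks, and Slc39a10 with 16 in 92Q and 17 in wild type at 29 weeks and 17 in both at 12 weeks. Slc39a13 was 29 in all 4 conditions, and Slc39a3 was 30 in both genotypes at 29 weeks and 34 in 92Q and 33 in wild type at 12 weeks. A transcript model on the same strand covers 84.5% of the Slc39a7 exon bases, so its reads can be assigned to either.

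**Figure D3:**
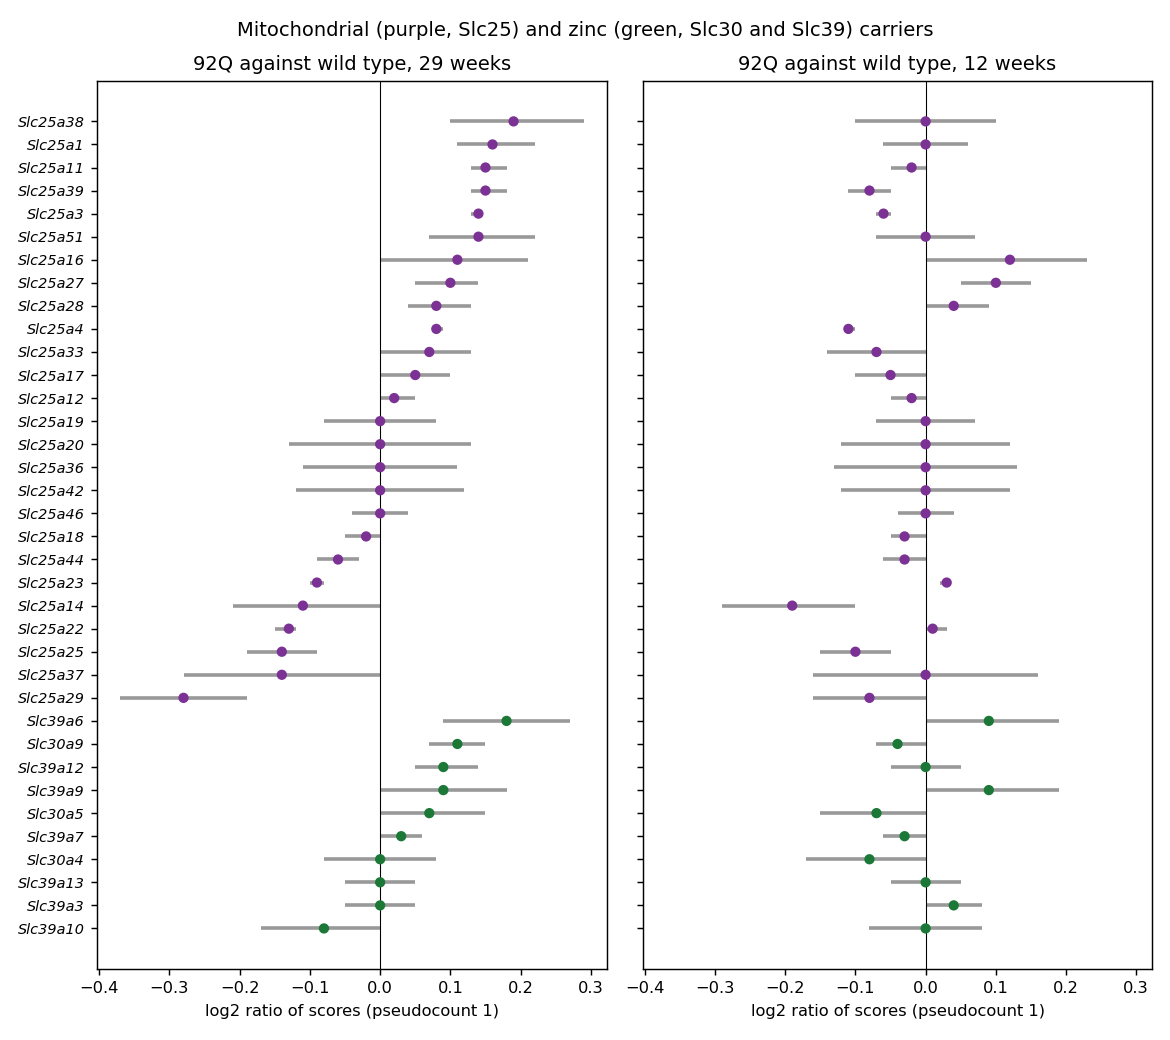
Log2 ratio of 92Q to wild type for 26 mitochondrial carriers (purple) and 10 zinc carriers (green) at 29 weeks (left) and 12 weeks (right). Points are ratios, and grey lines are the ranges that rounding to whole numbers allows, not replicate errors. Slc25a29 at -0.28 is the lowest at 29 weeks, and Slc25a38 at 0.19 the highest.

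Some carriers of choroid plexus and meninges were higher in 92Q at 29 weeks and not at 12 weeks. The others with a row were equal at 29 weeks, and all rows leaned to higher values in 92Q at that age. Of 27 carriers on the list of these tissues 10 had a row. At 29 weeks 6 were higher in 92Q, 0 lower and 4 equal, and at 12 weeks 1 was higher, 3 lower and 6 equal. Of these, 3 have a row only because 92Q at 29 weeks reached 10 and so had to be higher there. Of the other 7, 3 were higher and 4 equal at 29 weeks, and 1 was higher, 2 lower and 4 equal at 12 weeks, with a median of 0.00 at both ages. The anion carrier Slc13a4, a sulfate transporter of meninges and choroid plexus, scored 12 in 92Q and 9 in wild type at 29 weeks (0.38), and 6 in 92Q and 9 in wild type at 12 weeks (-0.51). It is one of those 3.

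Slc4a2, an exchanger of chloride and bicarbonate on the choroid plexus epithelium, was 24 in 92Q and 19 in wild type at 29 weeks (0.32), and 18 in 92Q and 19 in wild type at 12 weeks (-0.07). The sodium, potassium and chloride cotransporter Slc12a2 was 25 in 92Q and 23 in wild type at 29 weeks (0.12) and 22 in both at 12 weeks. The thyroxine carrier Slco1c1 was 13 in 92Q and 11 in wild type at 29 weeks (0.22) and 11 in both at 12 weeks. Of the folate carriers, Slc46a1 was 10 in 92Q and 8 in wild type at 29 weeks and Slc19a1 10 in 92Q and 9 in wild type at 29 weeks, and each was 9 in both genotypes at 12 weeks. They are the other two of those listed only through 92Q at 29 weeks. Slc4a10, Slc23a2 and Slc29a4 were equal in the genotypes at 29 weeks, at 44, 37 and 21.

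The peptide carrier Slc15a2, found on choroid plexus and astrocytes, was the only carrier of that list higher in 92Q at 12 weeks. It was 10 in both genotypes at 29 weeks, and 14 in 92Q and 8 in wild type at 12 weeks (0.74, rounding range 0.61 to 0.87). This was the largest higher ratio of any member at either age. Slc15a2 lies on chromosome 16 at 36750177 to 36784962 (minus strand, mm10).

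Some carriers outside that list had the same highest and lowest conditions as Slc13a4 and Slc4a2. The copper importer Slc31a1 was 15 in 92Q and 12 in wild type at 29 weeks (0.30) and 11 in 92Q and 12 in wild type at 12 weeks (-0.12). Slc22a17, a receptor for lipocalin-2, was 271 in 92Q and 231 in wild type at 29 weeks (0.23) and 225 in 92Q and 230 in wild type at 12 weeks (-0.03).

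In all, 13 members (8.9%) were highest in 92Q at 29 weeks and lowest in 92Q at 12 weeks, against 3.53% of all rows. Besides Slc13a4, Slc4a2, Slc31a1 and Slc22a17, these included Slc17a6, Slc6a11, Slc44a1, Slc41a1, Slc27a1, Slc25a12, Slc25a33 and Slc25a39. In Slc41a1, Slc27a1, Slc25a12 and Slc25a33 the genotypes did not differ beyond rounding at either age. Slc13a4 has a row only because 92Q at 29 weeks reached 10, so part of its order was set by that limit. The choroid plexus genes Ttr and Enpp2 had this order too. Of 18 markers of that tissue 8 had a row, 5 of them (Kl, Sostdc1, Kcnj13, Clic6 and 1500015O10Rik) only because 92Q at 29 weeks reached 10. The other 3 were Ttr, with 1403 in 92Q and 445 in wild type at 29 weeks and 6 in 92Q and 336 in wild type at 12 weeks, Enpp2, with 238 in 92Q and 101 in wild type at 29 weeks and 45 in 92Q and 92 in wild type at 12 weeks, and Otx2, with 14 in 92Q and 12 in wild type at 29 weeks and 10 in both at 12 weeks. The summed score of all 8 was 1729 in 92Q and 586 in wild type at 29 weeks, and 68 in 92Q and 464 in wild type at 12 weeks. Kl and Sostdc1 were at 0 in 92Q at 12 weeks. For 7 meningeal markers the sums were 1693 in 92Q and 1477 in wild type at 29 weeks and 1372 in 92Q and 1680 in wild type at 12 weeks. Ptgds alone gave most of each sum, with 1499, 1349, 1259 and 1551 in the same order. Of the 7 genes 6 were higher in 92Q, 0 lower and 1 equal at 29 weeks. At 12 weeks 1 was higher, 5 lower and 1 equal. The part of choroid plexus or meningeal tissue in these carrier values was not tested.

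**Figure D4:**
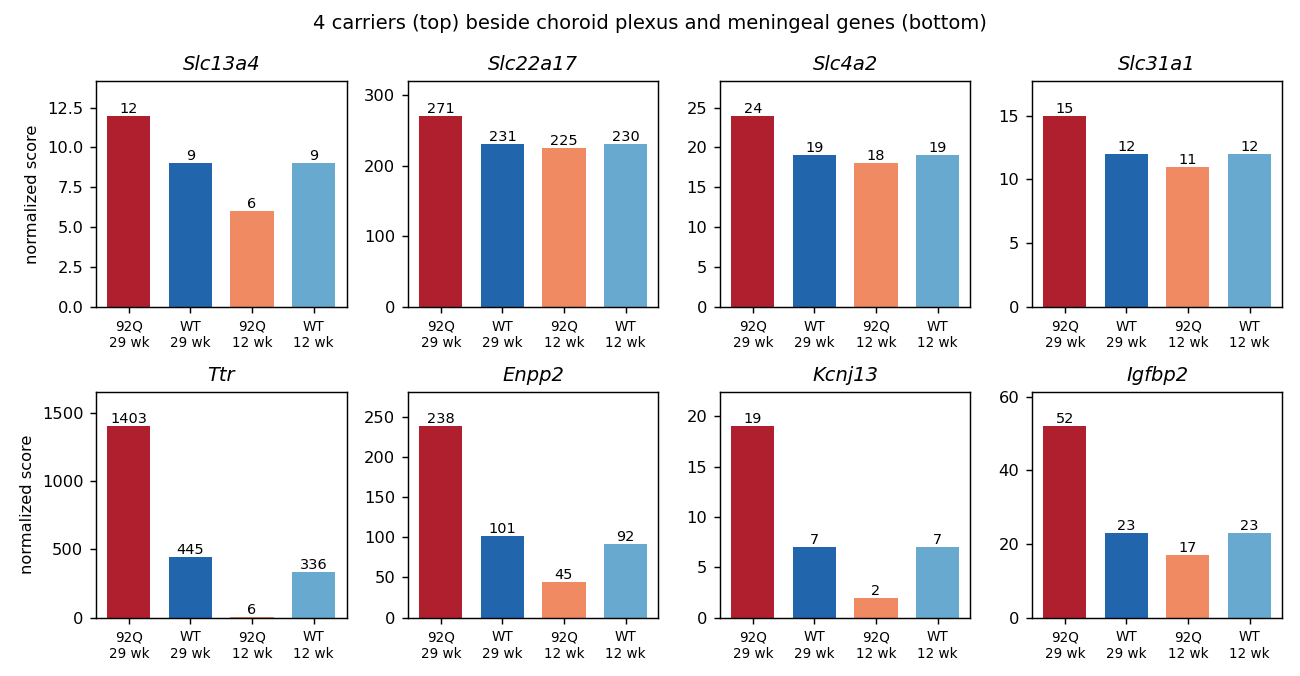
Deposited scores of 4 carriers (top row) and of the choroid plexus genes Ttr, Enpp2 and Kcnj13 with the meningeal gene Igfbp2 (bottom row), 92Q left of wild type and 29 weeks left of 12 weeks. Each bar is 1 value, and each panel has its own axis from 0. The 4 carriers were chosen because 92Q at 29 weeks is their highest bar and 92Q at 12 weeks their lowest. The genes of the bottom row have the same order, and Igfbp2 is 1 of 7 meningeal markers with a row. Slc15a2, the choroid plexus marker Otx2 and the meningeal markers Ptgds, Dcn and Islr, not shown, do not have it. Slc13a4 and Kcnj13 have a row only because 92Q at 29 weeks reached 10.

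Sugar and related carriers held 2 of the larger differences at 29 weeks. Slc2a13, a proton-coupled carrier of myo-inositol, was 24 in 92Q and 17 in wild type at 29 weeks (0.47, rounding range 0.41 to 0.54), and 29 in 92Q and 27 in wild type at 12 weeks (0.10). Its wild-type value at 29 weeks was the lowest of the 4. The hexose carrier Slc2a6 was 10 in 92Q and 8 in wild type at 29 weeks and 10 in both at 12 weeks. Slc2a1, the glucose carrier of the blood-brain barrier and glia, was 70 in 92Q and 63 in wild type at 29 weeks (0.15) and 54 in 92Q and 51 in wild type at 12 weeks (0.08), whereas the neuronal glucose carrier Slc2a3 was 37 in both at 29 weeks and 40 in 92Q and 39 in wild type at 12 weeks.

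Of 11 measured barrier carriers 5 were higher in 92Q, 2 lower and 4 equal at 29 weeks, with a median of 0.00. They included Slc7a5, a carrier of large neutral amino acids, with 39 in 92Q and 35 in wild type at 29 weeks and 36 in both at 12 weeks. Its partner chain Slc3a2 was 64 in both genotypes at 29 weeks and 62 in 92Q and 65 in wild type at 12 weeks. Slc38a3, which moves glutamine across astrocyte membranes, was 57 in 92Q and 47 in wild type at 29 weeks (0.27) and 51 in 92Q and 47 in wild type at 12 weeks (0.12), higher in 92Q at both ages.

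Ion carriers lower in 92Q at 29 weeks came from several subfamilies. The phosphate importer Slc20a1 was 66 in 92Q and 84 in wild type at 29 weeks (-0.34) and 80 in 92Q and 88 in wild type at 12 weeks (-0.14). Slc41a3, of the magnesium carrier family Slc41, was 16 in 92Q and 20 in wild type at 29 weeks (-0.30) and 21 in both at 12 weeks. The sodium and calcium exchanger Slc8a2 (NCX2) was 41 in 92Q and 46 in wild type at 29 weeks (-0.16) and 52 in 92Q and 53 in wild type at 12 weeks. Its relative Slc8a3 was 17 in 92Q and 15 in wild type at 29 weeks (0.17) and 17 in 92Q and 16 in wild type at 12 weeks. Slc12a5 (KCC2), which keeps neuronal chloride low, was 125 in 92Q and 132 in wild type at 29 weeks (-0.08) and 130 in 92Q and 129 in wild type at 12 weeks. Slc16a11, of the monocarboxylate family, was 30 in 92Q and 36 in wild type at 29 weeks (-0.26) and 41 in 92Q and 45 in wild type at 12 weeks (-0.13).

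Slc1a6, Slc1a3, Slc20a1, Slc16a11, Slc17a7 and Slc8a2 were among 19 members (13.0%) whose score was lowest in 92Q at 29 weeks, beside 17.1% of all rows. Conversely 48 members (32.9%) were highest in that condition, beside 26.2% of all rows.

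Among bicarbonate and proton carriers the ratios at 29 weeks were 0 or above in Slc4, where 4 of 5 were higher and none lower. Slc4a4, the sodium bicarbonate cotransporter of astrocytes, was 110 in 92Q and 103 in wild type at 29 weeks (0.09) and 104 in 92Q and 97 in wild type at 12 weeks (0.10). In the Slc35 family, most of whose members carry nucleotide sugars in the Golgi apparatus and endoplasmic reticulum, 7 of 15 were higher, 5 lower and 3 equal at 29 weeks, with a median of 0.00. Slc35f6, with 18 in 92Q and 16 in wild type at 29 weeks, had its highest ratio (0.16), and Slc35e2, with 18 in 92Q and 20 in wild type at 29 weeks, its lowest (-0.14). The carrier of UDP-galactose Slc35a2 was 13 in 92Q and 12 in wild type at 29 weeks, and the GDP-fucose carrier Slc35c1 10 in 92Q and 11 in wild type at 29 weeks.

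Several carriers of glutamine and other amino acids were nearly level. The glutamine carrier of neurons Slc38a1 was 106 in 92Q and 107 in wild type at 29 weeks and 108 in 92Q and 104 in wild type at 12 weeks. Slc38a2, which takes up small neutral amino acids, was 64 in 92Q and 66 in wild type at 29 weeks and 60 in 92Q and 64 in wild type at 12 weeks (-0.09). Slc38a10 was 23 in 92Q and 22 in wild type at 29 weeks and 22 in 92Q and 23 in wild type at 12 weeks. In Slc7, the glycine and D-serine carrier Slc7a10 was 28 in both at 29 weeks and 29 in 92Q and 30 in wild type at 12 weeks, and the basic amino acid carrier Slc7a1 was equal in the genotypes at both ages.

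Several of the larger ratios at 12 weeks came from carriers with scores near 10, where 1 unit moves the ratio most. Slc45a4 was 11 in 92Q and 10 in wild type at 29 weeks and 10 in 92Q and 9 in wild type at 12 weeks (0.14), and Slc12a9 was 10 in 92Q and 9 in wild type at 29 weeks and 10 in 92Q and 9 in wild type at 12 weeks (0.14). The organic anion carrier of the blood-brain barrier Slco1a4 was 12 in both at 29 weeks and 11 in 92Q and 10 in wild type at 12 weeks (0.13). None of these 3 differed beyond rounding. The neutral amino acid carrier Slc7a8 (LAT2) was 25 in 92Q and 24 in wild type at 29 weeks and 24 in 92Q and 22 in wild type at 12 weeks (0.12), and the neuronal bicarbonate carrier Slc4a8 was 14 in 92Q and 13 in wild type at 29 weeks and 12 in 92Q and 11 in wild type at 12 weeks (0.12). Lower in 92Q at 12 weeks were the astrocyte urea carrier Slc14a1, with 16 in both at 29 weeks and 16 in 92Q and 18 in wild type at 12 weeks (-0.16), and the copper carrier Slc31a2, with 9 in 92Q and 10 in wild type at 29 weeks and 9 in 92Q and 10 in wild type at 12 weeks (-0.14). The ratios of Slc4a8 and Slc31a2 at 12 weeks were not beyond rounding, and those of Slc7a8 and Slc14a1 were. At 29 weeks the Golgi exchanger Slc9a8 was 18 in 92Q and 16 in wild type (0.16).

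Age was the second axis of the study, and in wild type it cannot be told apart from the sex makeup of the pools, since Eif2s3y was 6 at 29 weeks and 0 at 12 weeks. Several transmitter carriers differed between the ages in both genotypes. Slc6a11, the GABA carrier of astrocyte processes around synapses (GAT-3), was 85 at 29 weeks and 57 at 12 weeks in 92Q (0.57), and 81 at 29 weeks and 59 at 12 weeks in wild type (0.45). Slc17a6 was 24 at 29 weeks and 14 at 12 weeks in 92Q (0.74), and 21 at 29 weeks and 16 at 12 weeks in wild type (0.37). Slc17a7 was lower at 29 weeks, with 188 against 248 at 12 weeks in 92Q (-0.40) and 201 against 242 at 12 weeks in wild type (-0.27). So VGLUT2 was higher and VGLUT1 lower at the later age, in each genotype. Slc1a2 was higher at 29 weeks by 0.21 in 92Q and 0.19 in wild type, and Slc1a3 lower by ratios of -0.21 and -0.13.

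In 92Q 10 members were at least 1.2-fold higher at 29 weeks, or 6.85% against 5.53% of all 7667 rows, and 9 were at least 1.2-fold lower, or 6.16% against 4% of all rows. Past 1.5-fold were 3 higher members, or 2.05% against 0.978% of all rows, among them Slc13a4 (0.89) and Slc17a6 (0.74), and 0 lower members against 0.483%. In wild type 5 members were higher by 1.2-fold or more, against 2.45% of all 7663 rows, and 5 were lower by as much, against 3.81%. That even split depended on the scaling: equal upper quartiles gave 8 higher and 2 lower, median ratios 3 lower and quantile normalization 2 lower. Past 1.5-fold none was higher, where 0.222% of all rows were, and Slc2a13 was lower (-0.64), where 0.144% were.

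Both age comparisons use different libraries. In 43 members the age ratio lay beyond rounding in each genotype, and in 33 of these (76.7%) it had the same direction, 17 higher and 16 lower, beside 80.2% of 2182 such rows in the whole table. Slc2a1 was 70 at 29 weeks and 54 at 12 weeks in 92Q (0.37), and 63 at 29 weeks and 51 at 12 weeks in wild type (0.30). Slc16a11 was lower in both (-0.44 and -0.31), and so was Slc8a2 (-0.34 and -0.20). Slc1a6 was lower at 29 weeks by a ratio of -0.54 in 92Q and of -0.19 in wild type.

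The Slc6 family leaned one way in wild type: in wild type 6 of 7 members were higher at 29 weeks and none lower, all 6 beyond rounding, with a median of 0.06. Of all 7663 rows 1244 were higher and 2220 lower beyond rounding in that comparison. In 92Q 4 were higher, 1 lower and 2 equal (median 0.03). Scaling the columns to equal upper quartiles moved the median wild-type age ratio of all rows up by 0.032, a shift of the size of the smaller of these differences. The adenosine and nucleoside carrier Slc29a1 was 21 at 29 weeks and 18 at 12 weeks in both genotypes. Slc29a4, a monoamine carrier, had the opposite order, with 21 at 29 weeks and 24 at 12 weeks in both, and Slc23a2, the vitamin C carrier of neurons and choroid plexus, was 37 at 29 weeks and 33 at 12 weeks in both. The neuronal sodium, calcium and potassium exchanger Slc24a2 was 64 at 29 weeks and 58 at 12 weeks in 92Q (0.14), and 65 at 29 weeks and 55 at 12 weeks in wild type (0.24).

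In Slc25 the lean with age differed between the genotypes as it did over all rows: 15 were higher at 29 weeks, 7 lower and 4 equal in 92Q (median 0.05), whereas 9 were higher, 14 lower and 3 equal in wild type (median -0.02). Over all rows 3247 were higher and 2712 lower in 92Q, and 2489 higher and 3517 lower in wild type. Their summed score was 1508 at 29 weeks and 1501 at 12 weeks in 92Q, and 1474 at 29 weeks and 1544 at 12 weeks in wild type. The pyrimidine nucleotide carrier Slc25a36 was 12 at 29 weeks and 10 at 12 weeks in both genotypes, and the mitochondrial iron carrier Slc25a37 was 9 at 29 weeks and 8 at 12 weeks in 92Q, and 10 at 29 weeks and 8 at 12 weeks in wild type. Slc35b1, of the endoplasmic reticulum, was lower at 29 weeks in both genotypes, by ratios of -0.18 in 92Q and -0.26 in wild type. Slc9a7, an exchanger of the trans-Golgi, was 11 at 29 weeks and 9 at 12 weeks in 92Q (0.26), and 10 at 29 weeks and 9 at 12 weeks in wild type (0.14). In Slc4 all 5 members were higher at 29 weeks in 92Q, with a median of 0.08, and 2 were higher and 3 equal in wild type, beside the counts over all rows given above.

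**Figure D5:**
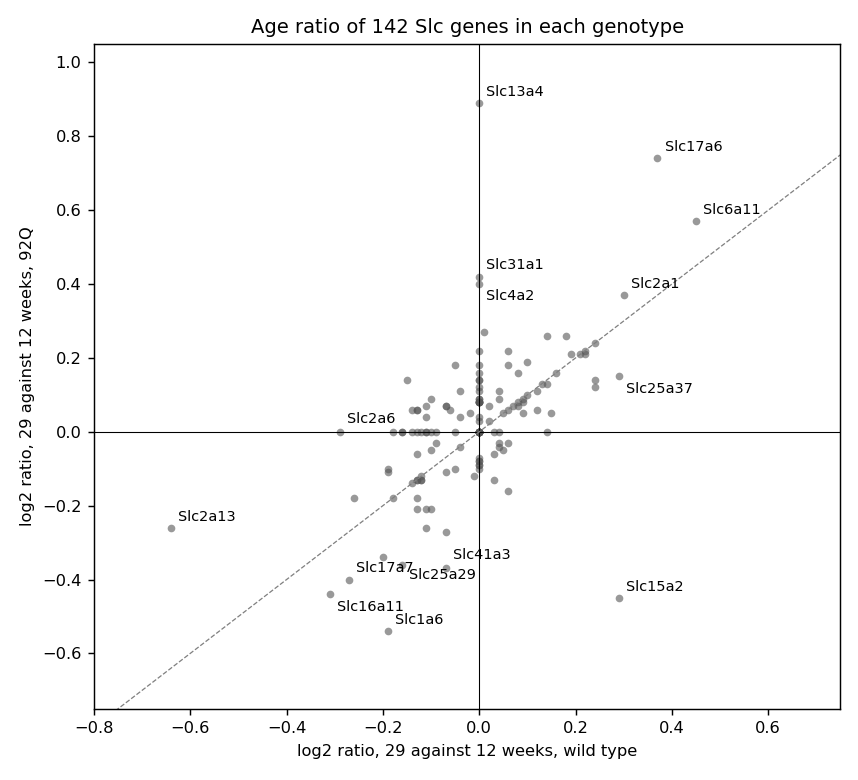
Log2 ratio of 29 to 12 weeks in 92Q (vertical axis) and in wild type (horizontal axis) for 142 Slc genes, each point 1 gene and the dashed line equal ratios. Slc17a6, Slc6a11 and Slc2a1 lie at the upper right, Slc17a7, Slc16a11 and Slc1a6 at the lower left. Slc13a4 is higher with age in 92Q and at 0 in wild type.

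The change of the genotype ratio between the ages uses all 4 values once. It was at least 1.2-fold upward in 8 members (5.48%, against 6.5% of 7659 rows) and at least 1.2-fold downward in 3 (2.05%, against 2.42%). Among those upward were Slc13a4 (0.89), Slc31a1 (0.42), Slc4a2 (0.40), Slc2a13 (0.37), Slc17a6 (0.36), Slc46a1 and Slc2a6 (0.29 each). Downward were Slc15a2 (-0.74), Slc1a6 (-0.35) and Slc41a3 (-0.30). At 1.5-fold 2 were upward, where 0.705% of all rows were, and 1 downward, where 0.261% were. Of the upward members, Slc13a4, Slc31a1, Slc4a2 and Slc17a6 were among the carriers highest in 92Q at 29 weeks and lowest in 92Q at 12 weeks. That order and the upward change come from the same 4 values, so this overlap is partly built in.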

How the data were processed

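Cerebellar total RNA of 4 groups was sequenced by the submitters as 12 libraries, with 3 per group and 3 mice per library. Per the labels' protocols, total RNA was isolated with TRIzol, cleaned on RNeasy columns and sequenced from TruSeq libraries as single reads of 50 bases. Bowtie 0.12.7, SAMtools 0.1.12a, Cuffdiff 1.3.0 and the build mm10 are named, per the submitters' processing notes, without role or order. The authors deposited a score, a whole number with 1 value per gene and group. It is taken as normalized because every column has a median of 22, with normalization, annotation and strand not given in the sources used here. Depth per library is unknown, so no interval was computed.

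Of 7684 rows, 17 named only by a number were left out. Every remaining row reached 10 in some group. Log2 ratios used a pseudocount of 1 where one or both groups reached 5, with ranges from moving each score by 0.5, and understate changes of low genes. No test was possible with 1 value per group, so counts past 1.2-fold and 1.5-fold are set beside all rows. The ratio step was tested on simulated data. Python 3.11.15, pandas 2.3.3 and numpy 2.4.6 were used. All 146 members matched GENCODE M21, whose assembly is that of mm10, and promoters came from RefSeq GRCm38.p6.

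The members, gene lists, thresholds and the rule for named genes were chosen with earlier results of these data known. The rule took all members of Slc1, Slc6, Slc17, Slc18, Slc30, Slc32 and Slc39, carriers of choroid plexus or meninges, the 8 highest and 8 lowest ratios per comparison, the highest and lowest of larger subfamilies, and members past 1.5-fold. Slc8a3, Slc3a2, Slc2a3, Slc29a1, the genes in the additional observations and several mitochondrial carriers were named after their values were seen. Results for 4 members are not reported here. Of the microglia or macrophage carriers, 2 of 13 had a row. The ratios were also computed with a pseudocount of 0.1 or 5, with a minimum of 1 or 10, and with the columns scaled in 3 other ways.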

Additional observations from a re-analysis of the deposited data

Results flagged for a closer look

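Among the carriers whose results are reported here, the genotype difference had opposite directions at 29 and 12 weeks in 11, each beyond rounding. With 1 value per group these differences between the ages were not tested, and rounding ranges hold no biological spread. The values below are the 29-week minus the 12-week log2 ratio of 92Q to wild type. Higher in 92Q at 29 weeks and lower at 12 weeks were Slc13a4 (0.89), Slc17a6 (0.36), Slc22a17 (0.26), Slc25a39 (0.24), Slc25a3 (0.19), Slc25a4 (0.19), Slc6a11 (0.12) and the sugar carrier Slc50a1 (0.18), which scored 40 in 92Q and 38 in wild type at 29 weeks and 38 in 92Q and 41 in wild type at 12 weeks. Lower in 92Q at 29 weeks and higher at 12 weeks were the GABA and glycine vesicle carrier Slc32a1 (-0.16), Slc17a7 (-0.13) and Slc25a23 (-0.12). The differences of all but Slc13a4 and Slc17a6 were under 1.2-fold. The summed score of 8 choroid plexus markers was 1729 in 92Q and 586 in wild type at 29 weeks, and 68 in 92Q and 464 in wild type at 12 weeks. Its highest and lowest conditions were those of Slc13a4. Slc13a4 and 5 of these markers have a row only because 92Q at 29 weeks reached 10, so part of this was set by that limit. Ttr alone gave 1403 of the 1729. The part of choroid plexus tissue in the Slc13a4 value was not tested.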

How the results depend on the processing

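No test exists for these values, so the alternatives show only how the ratios move with the processing. No paired analysis was possible because the table holds 1 value per group, and no library could be left out for the same reason. With a pseudocount of 5, members past 1.5-fold numbered 0 for the genotype at both ages, for lower values with age in wild type and for the downward change between ages, and 1 for the upward change. With it the genotype count at 29 weeks past 1.2-fold was 4 higher and 2 lower, and with age in wild type 3 higher and 2 lower. A minimum of 10 left 0 members lower at 12 weeks past 1.2-fold, and 0 and 5 upward between ages past 1.5-fold and 1.2-fold. Scaling by median ratios and quantile normalization each left 0 members 1.5-fold higher in 92Q at 29 weeks. The wild-type age count past 1.2-fold was 8 higher and 2 lower with equal upper quartiles, 3 lower with median ratios and 2 lower with quantile normalization. Restricted to the 135 members at 10 in all 4 conditions, a choice made after seeing the data, counts past 1.5-fold were 0 higher for the genotype at each age, 1 higher with age in 92Q and 0 for both changes between ages. Past 1.2-fold they were 0 and 0 at 12 weeks, 4 higher at 29 weeks, 3 higher with age in wild type and 4 upward between ages. Leaving out the 4 members that are not carriers moved no count by over 1.5 times. Scaling moved the small medians of short lists. For Slc1, equal upper quartiles gave 0.032 at 12 weeks and 0.033 with age in wild type, median ratios 0.056 at 29 weeks, and quantile normalization -0.018 for the change between ages. For the vesicular carriers, equal upper quartiles gave 0.066 at 12 weeks, 0.066 with age in wild type and -0.166 for the change between ages, median ratios -0.124 at 29 weeks and 0.049 with age in wild type, and quantile normalization 0.048 at 12 weeks, 0.067 with age in wild type and -0.175 for the change. The Slc6 median at 12 weeks turned to 0.004 with equal upper quartiles. No ratio of a single member past 1.2-fold changed sign under any of the 7 other settings.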

Other observations

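Some carriers did not differ in any comparison. In 7 members the score was the same in all 4 conditions, among them the acetyl-CoA carrier Slc33a1 at 14, the glutamine carrier Slc38a7 at 13 and the potassium and chloride cotransporter Slc12a4 at 10. In 76 members the highest and lowest of the 4 scores lay within 2 of each other, which at these levels is close to the rounding step.

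The members on the X chromosome were 6, and as the pools differed in Xist they are given together. At 29 weeks 4 were higher in 92Q and 2 lower (median 0.08), and at 12 weeks 1 was higher, 3 lower and 2 equal (median -0.02). 

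The pigment cell exchanger Slc24a5 was 24 in 92Q and 21 in wild type at 29 weeks, and 22 in 92Q and 21 in wild type at 12 weeks. In the annotation 36.5% of its exon bases overlap Myef2 on the opposite strand, which scored 16 in both genotypes at 29 weeks and 17 in both at 12 weeks, so the source of the Slc24a5 reads is uncertain. Of the 146 members 35 share some exon sequence with another gene, and 7 share at least 20% of their exon bases.

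The 4 members that are not carriers were close to level. The scaffold protein gene Slc9a3r2 was 51 in 92Q and 52 in wild type at 29 weeks and 59 in 92Q and 56 in wild type at 12 weeks, lower with age in both genotypes (-0.21 and -0.10). Slc9a3r1, a scaffold of the same family, was 21 in both at 29 weeks and 22 in 92Q and 23 in wild type at 12 weeks.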
